A study of Mus musculus with 12 samples.

Results

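The histone genes of the mouse were followed by messenger RNA sequencing in embryonic stem (ES) cells treated with the BET inhibitor JQ1 or its solvent DMSO. They were chosen by symbol, as the protein-coding genes of GENCODE M21 named Hist with a cluster number, H1f, H2af or H3f3, and the rule took 82 of the 52550 gene identifiers in each table. Of these, 67 carry a Hist symbol, are called cluster genes here and are mostly replication-dependent (6 encode H1, 18 H2A, 18 H2B, 12 H3 and 13 H4). The other 15 are variant or stand-alone linker genes (9 variant H2A, 2 variant H3 and 4 linker). Position was not used for this split, and Hist4h4 lies on chromosome 6 near the variant gene H2afj. A further 9 symbols that fit the names but are not protein coding were left out. A filter on low counts kept 52 of the 82 for testing, 42 from the clusters and 10 variant or linker genes, and 5 members (Hist1h2aa, Hist1h2ba, H2afb1, H2afb2 and H2afb3) had no count in any library.

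The 12 libraries form 6 groups of 2. Unmodified ES cells grown in medium with fetal bovine serum and the cytokine LIF (serum/LIF), unmodified ES cells grown in serum-free 2iL medium, and GSK3 knockout ES cells grown in serum/LIF were each given 100 nM JQ1 or DMSO for 60 h. JQ1 displaces the bromodomain proteins of the BET family from acetylated histones. The 2iL medium contains LIF, N2, B27 and the MEK inhibitor PD0325901, and the label leaves unnamed a second agent that goes with it. Serum/LIF cultures were kept on a layer of mitomycin-treated mouse embryonic fibroblasts and were passed to gelatin shortly before treatment. The 2iL cultures were kept on gelatin throughout, and the effects of medium and of fibroblast history cannot be told apart. The labels name no ES cell line, clone or animal, do not say which GSK3 gene was removed, and do not say whether the libraries of a group came from different cultures. Each p-value therefore rests on library spread that may be technical. Levels are given in CPM (counts scaled to library size) by the TMM method, and in each group the value of replicate 1 stands before that of replicate 2. In bulk RNA, fewer cells of a type and less RNA per cell cannot be told apart.

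Libraries held 17869865 to 48723436 expected counts, of which 0.248% to 0.482% fell on histone genes. The targeted genes were checked first. Gsk3a stood at 76.8 and 65.1 CPM in unmodified serum/LIF DMSO libraries and at 24.7 and 23.4 CPM in knockout DMSO libraries (log2 fold change -1.56 ± 0.13 SE, adjusted p = 2.08e-06), and Gsk3b at 74.7 and 72.2 CPM against 51.2 and 42.5 CPM (-0.65 ± 0.13, adjusted p = 0.00165). The deleted part is not given, so the remaining counts do not show whether protein was made. All 9 ES cell markers examined were detected in every library. The summed level of 12 fibroblast markers was 832 to 840 CPM in unmodified serum/LIF cells with DMSO and 349 to 361 CPM with JQ1, 311 to 459 CPM and 161 to 211 CPM in the knockout, and 8.06 to 17.1 CPM over the 2iL libraries, where 5 to 7 of the 12 were at 0. In the knockout JQ1 libraries at most 1 was at 0, and in the other serum/LIF groups each was detected. Mitochondrially encoded genes took 9.44% to 11.9% of counts with DMSO and 6.45% to 8.43% with JQ1 over the serum/LIF groups, and 6.41% to 6.75% against 4.67% to 4.82% in 2iL. The part of these differences in the histone values was not tested.

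Histones package DNA into nucleosomes: a core of H2A, H2B, H3 and H4 is wrapped by DNA and sealed by the linker histone H1. Most core and H1 genes sit in clusters, are transcribed in S phase, and give transcripts that end in a conserved stem-loop bound by SLBP in place of a poly(A) tail. Most variant and stand-alone linker genes are expressed through the cell cycle and give polyadenylated transcripts, and some cluster genes can also yield polyadenylated transcripts that run past the stem-loop. The kit is named as one for mRNA sequencing, and how it captured RNA is not given in the sources used here, so the share of stem-loop transcripts that reached the libraries is unknown.

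The stem-loop is shown because it is more frequent among cluster genes than among variant and linker genes, and it is referred to with the JQ1 results. The 16-base motif, searched as the arm GGNNCT, the loop TNTN and the arm AGNNCC in direct succession on the transcribed strand of GENCODE M21 transcripts (GRCm38), was found in 46 of 67 cluster genes (68.7%), in 1 of 15 variant and linker genes and in 164 of all 21819 protein-coding genes (0.752%). A match describes the letters of the annotated transcript only. The form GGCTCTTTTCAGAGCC was carried by 26 cluster genes. Capitals mark the whole element in the lines that follow.
Hist1h1c, Hist3h2a, Hist3h2ba and Hist1h2ap: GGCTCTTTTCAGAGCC
Hist1h4i: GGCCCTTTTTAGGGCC
Hist1h3c: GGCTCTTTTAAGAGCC
H2afx, the variant gene with a match: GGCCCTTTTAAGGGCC
The genes with the same stem-loop differ in what the annotation places after it. The transcript of Hist1h2ap ends 3 bases past it, whereas that of Hist3h2ba runs on for 169, Hist1h1c for 840 and Hist3h2a for 1643 bases, and that of H2afx for 822 bases past its own.

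Promoters of 76 of the 82 genes were matched in a RefSeq table (GRCm38.p6), which gives 250 bases before and 50 after each start. They were searched on both strands for the CCAAT box, the TATA box as TATAAA, the octamer ATTTGCAT and AAACACA (a core of the H1 box), none of which contains another. CCAAT was in 53 of 62 cluster promoters (85.5%), in 10 of 14 variant and linker promoters (71.4%) and in 37.4% of all promoters in the table. Among the cluster promoters matched, it was in all 6 H1, 18 H2A, 16 H2B and 10 H3 promoters, and in 3 of 12 H4 promoters. TATAAA was in 56.5% of cluster promoters against 13.6% of all, and in 1 of 14 variant and linker promoters. The octamer was in 7 of 18 H2A and 6 of 16 H2B promoters against 1.7% of all, and AAACACA in 5 of 6 cluster H1 promoters against 7.2% of all.
The 250 bases before the start are printed for 4 genes that rose with JQ1 in all 3 settings, with the motifs in capitals.
Hist1h1c, chr13:23738557-23738806, plus strand: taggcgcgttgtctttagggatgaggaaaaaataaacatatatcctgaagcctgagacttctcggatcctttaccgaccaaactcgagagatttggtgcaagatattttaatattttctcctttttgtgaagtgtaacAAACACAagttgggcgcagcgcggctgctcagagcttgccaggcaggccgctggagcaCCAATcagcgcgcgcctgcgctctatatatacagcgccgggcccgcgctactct
Hist3h2ba, chr11:58948661-58948910, plus strand: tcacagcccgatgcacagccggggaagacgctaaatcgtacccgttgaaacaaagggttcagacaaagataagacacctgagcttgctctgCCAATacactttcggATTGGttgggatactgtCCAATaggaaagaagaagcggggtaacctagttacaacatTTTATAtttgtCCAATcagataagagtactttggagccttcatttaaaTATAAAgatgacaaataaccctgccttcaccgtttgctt
H3f3b, chr11:116024505-116024754, minus strand: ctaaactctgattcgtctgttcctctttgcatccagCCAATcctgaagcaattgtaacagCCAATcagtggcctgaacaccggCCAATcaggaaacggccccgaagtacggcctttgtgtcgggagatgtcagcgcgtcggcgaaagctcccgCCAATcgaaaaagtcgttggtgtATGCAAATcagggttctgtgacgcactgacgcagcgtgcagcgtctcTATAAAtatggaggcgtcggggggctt
H1fx, chr6:87981483-87981732, minus strand: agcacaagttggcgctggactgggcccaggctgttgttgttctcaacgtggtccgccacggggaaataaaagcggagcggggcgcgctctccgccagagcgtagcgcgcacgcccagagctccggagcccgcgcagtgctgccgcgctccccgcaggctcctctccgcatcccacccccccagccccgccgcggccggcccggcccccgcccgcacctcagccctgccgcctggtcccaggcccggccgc
The printed cluster promoters and that of H3f3b hold CCAAT, and that of Hist1h1c also holds AAACACA. Those of Hist3h2ba and H3f3b also hold TATAAA, and that of H3f3b holds the octamer. The H1fx window holds none of the 4 motifs in this form. The RefSeq starts of H3f3b and H1fx lie 3458 and 155 bases inside the outermost start that GENCODE gives, so the H3f3b window and much of that of H1fx fall within the GENCODE gene.

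JQ1 was first compared with DMSO in each setting. Genes passed the test at an adjusted p under 0.05 (edgeR's quasi-likelihood test, Benjamini-Hochberg over 16987 genes, 2-sided). In serum/LIF, 5 of 42 cluster genes and 5 of 10 variant and linker genes passed, all higher, where 21.3% of all genes passed and 8.54% were higher. In 2iL, 9 cluster genes were higher, and of the variant and linker genes 4 were higher and 1 lower (28.5% of all genes passed, 11.2% higher and 17.3% lower). In the knockout, 9 cluster and 8 variant and linker genes passed, all higher (34.1% of all genes passed, 14.6% higher). The median log2 fold change over the 52 histone genes was 0.61 in serum/LIF, 0.93 in 2iL and 0.78 in the knockout, beside -0.02, -0.06 and -0.06 over all genes. The fold was above 0 for 48, 41 and 45 of the 52, beside 8260, 7522 and 7737 of all 16987 genes. Members that share reads do not count as separate cases here. The cluster counts changed with single libraries: that of 5 in serum/LIF fell to between 1 and 3 without any one library, that of 9 in 2iL to 4 without JQ1 replicate 1, and that of 9 in the knockout to 5 without DMSO replicate 1.

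The JQ1 comparisons use separate libraries within 1 fit. Across them, 7 histone genes were higher in all 3: the stand-alone linkers H1f0 and H1fx, the cluster linker Hist1h1c, the variants H2afx and H3f3b, and the cluster genes Hist3h2a and Hist3h2ba. Of all genes, 2.27% were higher in all 3. That is 4 of 10 variant and linker genes and 3 of 42 cluster genes. In 15 of the 52, both JQ1 libraries lay above both DMSO libraries in every setting, against 10.1% of all genes. A further 16 members were higher in 1 or 2 settings, among them H2afy2, which was lower in 2iL, and 29 passed in no setting.

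The linker histones come first by role. H1f0 encodes H1.0, the linker histone that accumulates in differentiated and resting cells (chromosome 15, 79028450 to 79030504). It stood at 38.3 and 37.7 CPM with DMSO and 109 and 149 CPM with JQ1 in serum/LIF, at 47.7 and 51.8 against 106 and 142 CPM in 2iL, and at 36.4 and 29.5 against 99.9 and 92.8 CPM in the knockout. The lowest JQ1 library was above every DMSO library. The log2 fold changes were 1.77 ± 0.17 (SE, adjusted p = 3.99e-05), 1.32 ± 0.17 (adjusted p = 0.00014) and 1.55 ± 0.17 (adjusted p = 4.22e-05).

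H1fx encodes H1X, a linker histone encoded outside the clusters (chromosome 6, 87980421 to 87981637). Its levels were 19.4 and 22.9 CPM with DMSO and 52.7 and 83.2 CPM with JQ1 in serum/LIF, 31.2 and 28.6 against 81.8 and 85.0 CPM in 2iL, and 25.1 and 21.9 against 78.4 and 76.8 CPM in the knockout. Here too no JQ1 library reached down to a DMSO library. The log2 fold changes of 1.69 ± 0.18, 1.48 ± 0.18 and 1.72 ± 0.18 each passed (adjusted p = 7.47e-05, 9.48e-05 and 2.84e-05). For neither gene did the JQ1 effect pass a test of its difference between serum/LIF and either other setting, with H1f0 differing by -0.45 ± 0.23 in 2iL (adjusted p = 0.357) and by -0.22 ± 0.24 in the knockout (adjusted p = 0.617). H1fx differed by -0.21 ± 0.25 and 0.03 ± 0.25 (adjusted p = 0.725 and 0.965).

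Hist1h1c, the cluster gene for the linker histone H1.2 (chromosome 13, 23738808 to 23740367), responded unequally across the settings. In serum/LIF it stood at 7.82 and 6.29 CPM with DMSO and 11.9 and 10.6 CPM with JQ1. In 2iL the values were 3.17 and 2.21 against 15.4 and 16.2 CPM, and in the knockout 2.24 and 2.40 against 12.4 and 9.69 CPM. The DMSO libraries of 2iL and of the knockout were the lowest, and every JQ1 library was above every DMSO library.
The JQ1 log2 fold change was 0.66 ± 0.20 in serum/LIF (adjusted p = 0.0345), 2.55 ± 0.22 in 2iL (adjusted p = 9.34e-06) and 2.25 ± 0.23 in the knockout (adjusted p = 2.23e-05). The serum/LIF fold missed the threshold when DMSO replicate 2 was left out (0.52, adjusted p = 0.189), when either JQ1 library was (adjusted p = 0.137 for replicate 1 and 0.0503 for replicate 2), and in a fit of only these 4 libraries (adjusted p = 0.0708). The response was larger than that in serum/LIF by 1.89 ± 0.30 in 2iL (adjusted p = 0.00374) and by 1.60 ± 0.30 in the knockout (adjusted p = 0.0128). Both differences use the same serum/LIF libraries. The knockout difference passed no longer without serum/LIF DMSO replicate 1 (1.42, adjusted p = 0.0545), knockout DMSO replicate 1 (1.54, adjusted p = 0.0696) or knockout JQ1 replicate 1 (1.40, adjusted p = 0.0703).

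The other cluster linker genes were near the limit of counting. Hist1h1d, for H1.3, stood at 0.275 and 0.415 CPM with DMSO and 1.14 and 0.949 CPM with JQ1 in 2iL (1.58 ± 0.53, adjusted p = 0.042), a call lost on leaving out any one of the 4 libraries. Hist1h1e, for H1.4, had a fold of 1.34 in serum/LIF, 2.68 in 2iL and 0.79 in the knockout, and Hist1h1a, for H1.1, 1.22, 1.49 and 0.67, and these 6 did not pass. The summed level of the 6 cluster H1 genes was 8.19 to 9.41 CPM with DMSO and 13.4 to 14.7 CPM with JQ1 in serum/LIF, 3.32 to 3.85 against 18.0 to 18.8 CPM in 2iL, and 3.19 to 3.51 against 11 to 14 CPM in the knockout. Hist1h1c held most of these counts.

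**Figure D1:**
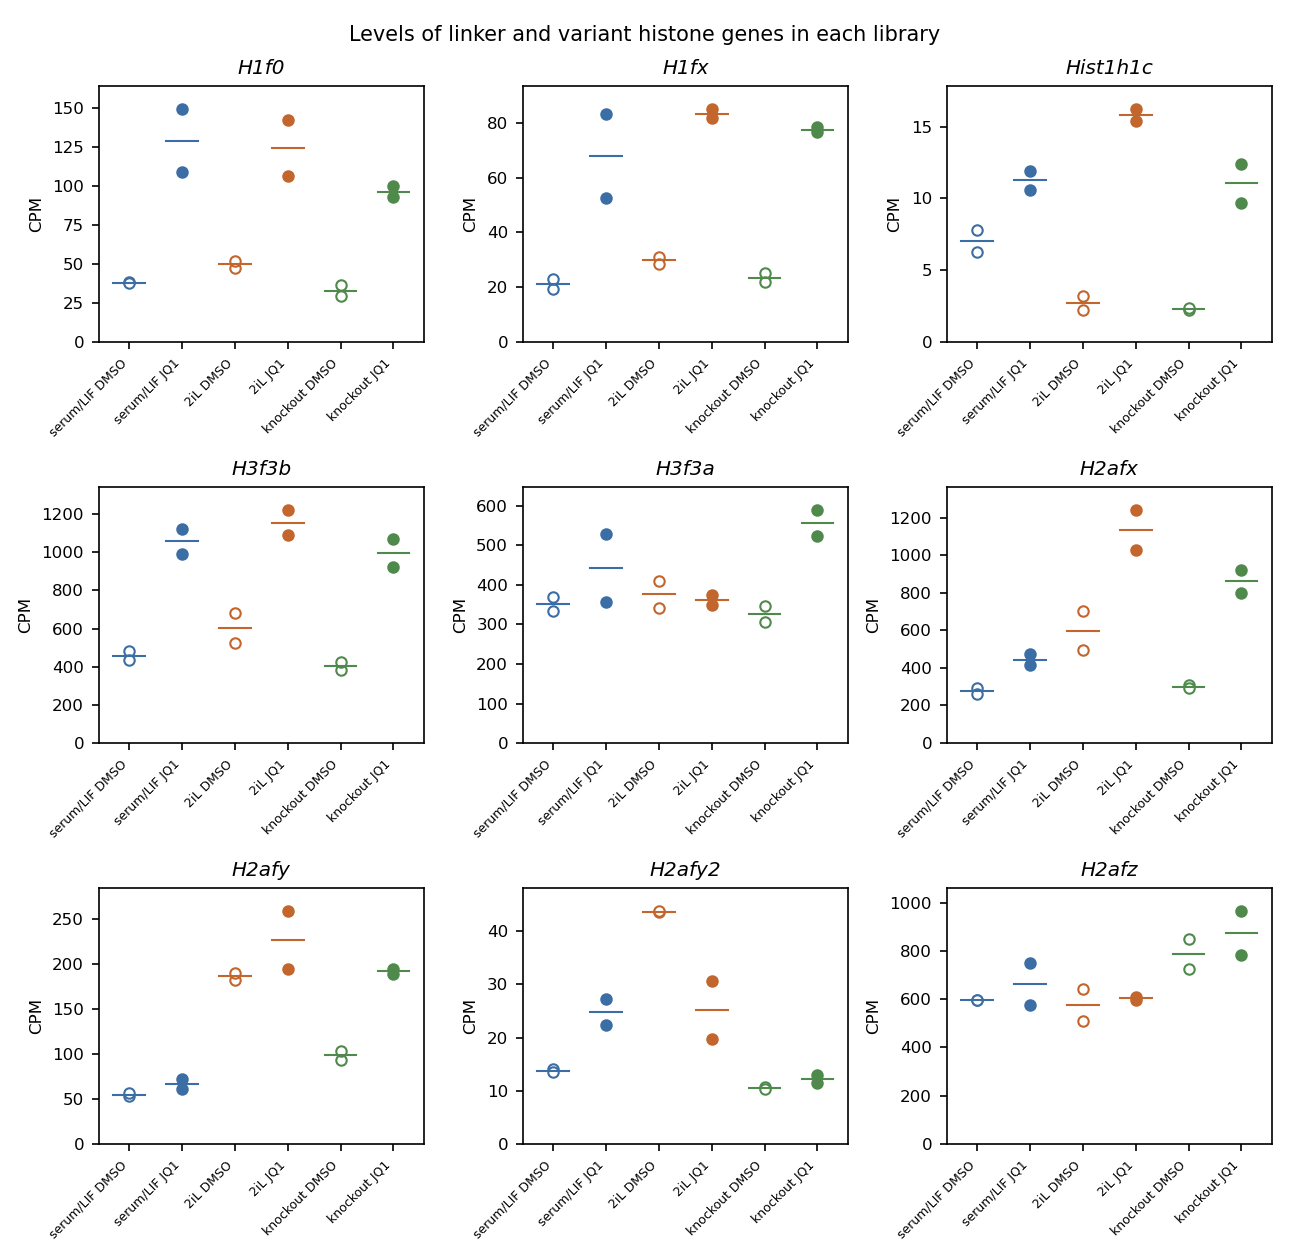
Level in CPM (vertical axis, from 0) of 9 linker and variant histone genes in each of the 12 libraries, by group along the horizontal axis; open points are DMSO, filled points JQ1, and the bar is the mean of the 2 libraries. H1f0, H1fx and H3f3b have all JQ1 libraries above all DMSO libraries, Hist1h1c is lowest in the 2iL and knockout DMSO libraries, and H2afy2 is highest in the 2iL DMSO libraries.

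Among the variants, H3f3a and H3f3b encode the same protein, H3.3, which is deposited outside replication. H3f3b stood at 481 and 436 CPM with DMSO and 993 and 1120 CPM with JQ1 in serum/LIF, at 684 and 525 against 1090 and 1220 CPM in 2iL, and at 385 and 425 against 922 and 1070 CPM in the knockout. As with H1f0, every JQ1 library was above every DMSO library. The log2 fold changes were 1.20 ± 0.14, 0.93 ± 0.14 and 1.30 ± 0.14 (adjusted p = 0.000124, 0.000382 and 3.15e-05).

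H3f3a stood at 333 and 370 CPM with DMSO and 358 and 530 CPM with JQ1 in serum/LIF, at 410 and 342 against 349 and 374 CPM in 2iL, and at 305 and 347 against 525 and 589 CPM in the knockout. The knockout groups did not overlap, while the groups of the other settings did. The fold passed in the knockout (0.77 ± 0.16, adjusted p = 0.00322), and was 0.34 ± 0.16 in serum/LIF (adjusted p = 0.156) and -0.06 ± 0.16 in 2iL (adjusted p = 0.826). The difference between the knockout and serum/LIF responses did not pass (0.43 ± 0.23, adjusted p = 0.275), nor did that between 2iL and serum/LIF (-0.40 ± 0.23, adjusted p = 0.408).

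H2afx encodes H2A.X, which is phosphorylated around DNA breaks, and is the variant gene with a stem-loop. Its levels were 294 and 263 CPM with DMSO and 414 and 475 CPM with JQ1 in serum/LIF, 701 and 495 against 1240 and 1030 CPM in 2iL, and 309 and 291 against 922 and 801 CPM in the knockout. Within each setting the groups were apart, and the 2iL DMSO libraries were above the serum/LIF JQ1 libraries. The log2 fold changes were 0.67 ± 0.16 (adjusted p = 0.0095), 0.92 ± 0.16 (adjusted p = 0.00102) and 1.52 ± 0.16 (adjusted p = 2.72e-05). The first was lost without serum/LIF DMSO replicate 2 (0.60, adjusted p = 0.0735). The knockout response was larger than that in serum/LIF by 0.85 ± 0.22 (adjusted p = 0.048), which did not pass when any one of 7 of the 8 libraries was left out (adjusted p from 0.0664 to 0.171), the exception being serum/LIF JQ1 replicate 2.

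H2afy and H2afy2 encode the macroH2A proteins, large variants found on silent chromatin. H2afy2 stood at 14.1 and 13.5 CPM with DMSO and 22.3 and 27.3 CPM with JQ1 in serum/LIF, at 43.6 and 43.7 against 19.8 and 30.7 CPM in 2iL, and at 10.7 and 10.3 against 13.0 and 11.4 CPM in the knockout. JQ1 libraries were the higher ones in serum/LIF and the lower ones in 2iL. The folds were 0.84 ± 0.18 (adjusted p = 0.00676) and -0.78 ± 0.18 (adjusted p = 0.00616), and 0.22 ± 0.19 in the knockout (adjusted p = 0.4). The difference between 2iL and serum/LIF was -1.62 ± 0.26 (adjusted p = 0.00374). The fall in 2iL passed no longer without JQ1 replicate 1 (-0.49, adjusted p = 0.0728).

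H2afy moved apart from its paralog. It stood at 53.2 and 56.3 CPM with DMSO and 61.2 and 72.3 CPM with JQ1 in serum/LIF, at 183 and 190 against 195 and 259 CPM in 2iL, and at 93.6 and 104 against 189 and 195 CPM in the knockout. JQ1 libraries were above the DMSO libraries of the same setting, and those of the knockout reached the levels of 2iL cells. JQ1 changed it by 0.96 ± 0.13 in the knockout (adjusted p = 0.000225) and by 0.29 ± 0.13 in each of the other settings (adjusted p = 0.148 in serum/LIF and 0.12 in 2iL). The difference between the knockout and serum/LIF responses was 0.67 ± 0.19 and did not pass (adjusted p = 0.064).

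Of the remaining H2A variants, H2afz, for H2A.Z, stood between 509 and 964 CPM over all libraries, and its JQ1 folds of 0.15, 0.07 and 0.15 did not pass. H2afv, for a second H2A.Z protein, stood at 63.1 and 70.8 CPM with DMSO and 114 and 109 CPM with JQ1 in the knockout (0.74 ± 0.16, adjusted p = 0.00342) and at 0.26 and 0.15 as log2 folds in serum/LIF and 2iL, which did not pass. H2afj rose with JQ1 in the knockout from 42.5 and 41.3 to 60.9 and 53.6 CPM (0.45 ± 0.13, adjusted p = 0.015), and the call was lost without either DMSO library or without JQ1 replicate 1. In 2iL it stood at 73.0 and 63.0 CPM with DMSO and 54.5 and 53.4 CPM with JQ1, so that the JQ1 libraries were the lower ones without overlap, and the fold did not pass (-0.33 ± 0.12, adjusted p = 0.0614). In serum/LIF it was 37.4 and 34.7 against 35.5 and 43.1 CPM, which overlapped (0.12 ± 0.13, adjusted p = 0.532). The linker genes H1fnt and H1foo were under the filter.

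**Figure D2:**
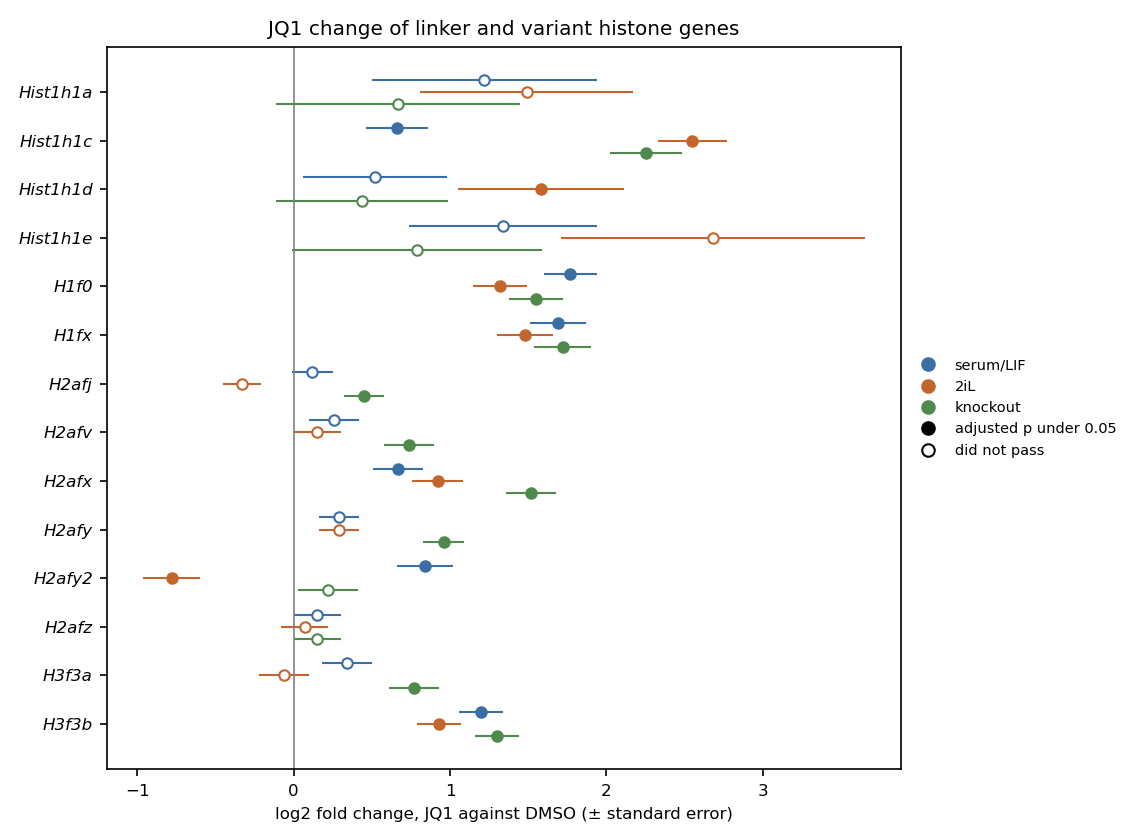
log2 fold change of JQ1 against DMSO (horizontal axis, bars ± standard error) for the 14 linker and variant genes tested, in serum/LIF (blue), 2iL (orange) and the knockout (green); filled points passed at an adjusted p under 0.05. H1f0, H1fx, H2afx, H3f3b and Hist1h1c are filled in all 3 colours, and H2afy2 lies at 0.84 in serum/LIF and at -0.78 in 2iL.

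Cluster genes are low in these libraries, which sets how firmly their changes can be stated. Of the 67, 59 had a median under 50 counts per library. Hist1h2ap, an H2A gene, held 76.8% to 86.1% of all cluster counts and the highest TPM of any histone gene (mean 3960, from 2270 to 6280), a measure per length that allows genes to be compared. H2afz came next at a mean TPM of 1010, then H2afx at 636, H3f3a at 572, H3f3b at 548 and the cluster gene Hist1h2ah at 479. The range of Hist1h2ap did not overlap with that of H2afz, and from H2afz on each range overlapped with the next. By the mean over the 12 libraries the first H2B, H3 and H4 cluster genes were Hist1h2bc (mean TPM 19.8), Hist1h3c (10.2) and Hist1h4n (5.78). Their ranges (11.2 to 38.4, 7.21 to 17.7 and 1.75 to 14.6) overlapped with those of the next gene of each type, Hist1h2br (5.66 to 31.5), Hist1h3h (4.95 to 18.1) and Hist1h4h (1.43 to 8.63), so these ranks are not firm. Reads of near-identical copies were divided by estimation: 92.2% of the 100-base windows of the Hist1h2ap transcript and 87.9% of those of Hist1h2ah also occur in another gene's transcript, against 5.1% for Hist1h1c and 4.9% for Hist3h2ba. Values of Hist1h2ap, Hist1h2ah, Hist1h2ad (63.6% shared), Hist1h2bq (94.6%), Hist1h2ao (92.7%), Hist1h2ai (88.4%) and Hist1h4n (80.7%) are therefore uncertain as to which copy they belong to.

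Hist3h2a and Hist3h2ba are neighbours in the small cluster on chromosome 11 and passed in all 3 settings. Hist3h2a, an H2A gene, stood at 1.79 and 1.38 CPM with DMSO and 4.43 and 4.74 CPM with JQ1 in serum/LIF, at 2.39 and 0.829 against 9.05 and 5.99 CPM in 2iL, and at 1.17 and 0.503 against 8.58 and 3.56 CPM in the knockout. JQ1 libraries were higher without overlap in each setting, and DMSO libraries of 2iL and of the knockout differed between replicates. The log2 fold changes were 1.5 ± 0.48 (adjusted p = 0.0422), 2.22 ± 0.49 (adjusted p = 0.00535) and 2.86 ± 0.54 (adjusted p = 0.00173). In serum/LIF the call was lost without any one of the 4 libraries (adjusted p from 0.0922 to 0.174).

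Hist3h2ba, an H2B gene, stood at 0.611 and 0.307 CPM with DMSO and 2.09 and 2.86 CPM with JQ1 in serum/LIF, at 0.229 and 0.184 against 0.968 and 0.819 CPM in 2iL, and at 0.102 and 0.335 against 1.41 and 0.891 CPM in the knockout. The groups were apart in each setting. The folds were 2.32 ± 0.47 (adjusted p = 0.0044), 2.08 ± 0.60 (adjusted p = 0.021) and 2.42 ± 0.59 (adjusted p = 0.00755). The 2iL call was lost without any one library (adjusted p from 0.0627 to 0.083), and that in the knockout with DMSO replicate 1 left out (1.79, adjusted p = 0.0901) or with JQ1 replicate 1 left out (2.03, adjusted p = 0.0687).

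Other H2B genes rose in some settings. Hist1h2bc stood at 14.1 and 10.5 CPM with DMSO and 26.8 and 19.9 CPM with JQ1 in 2iL (0.92 ± 0.20, adjusted p = 0.00472), and at 9.85 and 11.7 against 18.7 and 16.4 CPM in the knockout (0.71 ± 0.20, adjusted p = 0.0174). The JQ1 libraries were above the DMSO libraries in both. Leaving out JQ1 replicate 1 ended the 2iL call (0.71, adjusted p = 0.0589). In the knockout it ended with DMSO replicate 1 left out (0.59, adjusted p = 0.134) and with JQ1 replicate 1 left out (0.61, adjusted p = 0.113). Hist2h2be, from the cluster on chromosome 3, stood at 0.387 and 0.358 CPM with DMSO and 1.13 and 1.11 CPM with JQ1 in serum/LIF (1.56 ± 0.47, adjusted p = 0.0325), and at 0.356 and 0.447 against 2.30 and 0.947 CPM in the knockout (2.05 ± 0.48, adjusted p = 0.00653). The serum/LIF call was lost without any one library and with DESeq2 (adjusted p = 0.0632), and that in the knockout with DMSO replicate 1 left out (1.89, adjusted p = 0.0636) or with JQ1 replicate 1 left out (1.24, adjusted p = 0.126).

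The abundant H2A genes passed with JQ1 in the knockout. Hist1h2ap stood at 500 and 447 CPM with DMSO and 479 and 649 CPM with JQ1 in serum/LIF, at 701 and 631 against 755 and 527 CPM in 2iL, and at 625 and 404 against 1010 and 747 CPM in the knockout. The groups overlapped in serum/LIF and in 2iL. The knockout fold of 0.77 ± 0.22 (adjusted p = 0.0183) fell under the threshold with DMSO replicate 2 left out (0.50, adjusted p = 0.158) or with JQ1 replicate 1 left out (0.54, adjusted p = 0.16). Hist1h2ah rose there from 39.5 and 26.7 to 68.3 and 60.6 CPM (0.96 ± 0.20, adjusted p = 0.0034), and Hist1h2ad from 25.3 and 20.0 to 65.8 and 53.8 CPM (1.40 ± 0.31, adjusted p = 0.00461). For these 3 the differences between the knockout and serum/LIF responses did not pass (0.52, 0.85 and 1.46, adjusted p = 0.342, 0.106 and 0.0785).

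In 2iL the core cluster genes that passed with the largest rises, among those reaching 1 CPM in a group, were Hist1h2ac, Hist1h2bq, Hist3h2a, Hist3h2ba and Hist1h3d. Hist1h2ac went from 0.138 and 0.0461 to 0.569 and 0.776 CPM (2.82 ± 0.71, adjusted p = 0.0106), which missed the threshold with DMSO replicate 2 left out (2.27, adjusted p = 0.0635) or with JQ1 replicate 2 left out (2.57, adjusted p = 0.0717). Hist1h2bq went from 0.413 and 0.921 to 3.70 and 3.71 CPM (2.46 ± 0.52, adjusted p = 0.00398). In TPM it stood at 0.28 and 14.6 with DMSO and 16 and 16.7 with JQ1, so only DMSO replicate 1 was far lower. Hist1h2br, with 85.8% of windows shared, stood at 31.5 and 15.2 against 13.7 and 15.5 TPM. The part of read division between copies in the Hist1h2bq rise was not tested. Hist1h3d went from 0.321 and 0.369 to 1.65 and 0.906 CPM (1.86 ± 0.56, adjusted p = 0.026), a call lost without either DMSO library or JQ1 replicate 1. The H4 gene Hist1h4i passed in 2iL, from 1.19 and 0.599 to 2.79 and 1.94 CPM (1.39 ± 0.42, adjusted p = 0.0268), and in the knockout, from 0.356 and 0.503 to 1.51 and 1.56 CPM (1.83 ± 0.49, adjusted p = 0.0117), where it was lost without DMSO replicate 1 (1.60, adjusted p = 0.0983). In serum/LIF the fifth cluster call was Hist1h4b, which falls under 1 CPM in every group and is named after its values were seen (0.0815 and 0.102 against 0.652 and 0.484 CPM, adjusted p = 0.0432). It held 4 and 2 counts with DMSO and 15 and 10 with JQ1. Only JQ1 libraries of this gene reached the level of the low-count filter, so its rise is not independent of that filter. The same holds for Hist1h1e and Hist4h4, which enter the medians and the counts of folds above 0.

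The summed levels show how the classes compare. The 18 cluster H2B genes summed to 17.1 to 19.6 CPM with DMSO and 27.4 to 30.3 CPM with JQ1 in serum/LIF, to 16.6 to 19.4 against 32.1 to 39.7 CPM in 2iL, and to 15.4 to 19.0 against 26.1 to 32.7 CPM in the knockout. The cluster H3 genes summed to 10.3 to 10.5 against 14.2 to 16.5 CPM, 6.54 to 7.85 against 10 to 13.2 CPM, and 8.53 to 8.61 against 11.4 to 13.1 CPM. The H4 genes gave 5.12 to 5.87 against 8.12 to 8.47 CPM, 2.43 to 2.72 against 5.74 to 7.35 CPM, and 3.66 to 3.74 against 6.85 to 7.55 CPM. JQ1 libraries were higher without overlap for cluster H1, H2B, H3 and H4 in each setting, and so for the stand-alone linkers, variant H2A and variant H3. The cluster H2A sum, which follows Hist1h2ap, overlapped in serum/LIF (521 to 575 against 551 to 744 CPM) and in 2iL (704 to 827 against 619 to 839 CPM), and not in the knockout (463 to 700 against 879 to 1170 CPM). Other sums also follow single genes. In 2iL H3f3a overlapped (410 and 342 against 349 and 374 CPM), so the variant H3 sum follows H3f3b there. The 2iL variant H2A sum follows H2afx (701 and 495 against 1240 and 1030 CPM), while H2afy2 and H2afj were lower with JQ1. Hist1h2bc held 11.8 and 9.42 CPM of the cluster H2B sum with DMSO in serum/LIF. These sums carry no test.

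**Figure D3:**
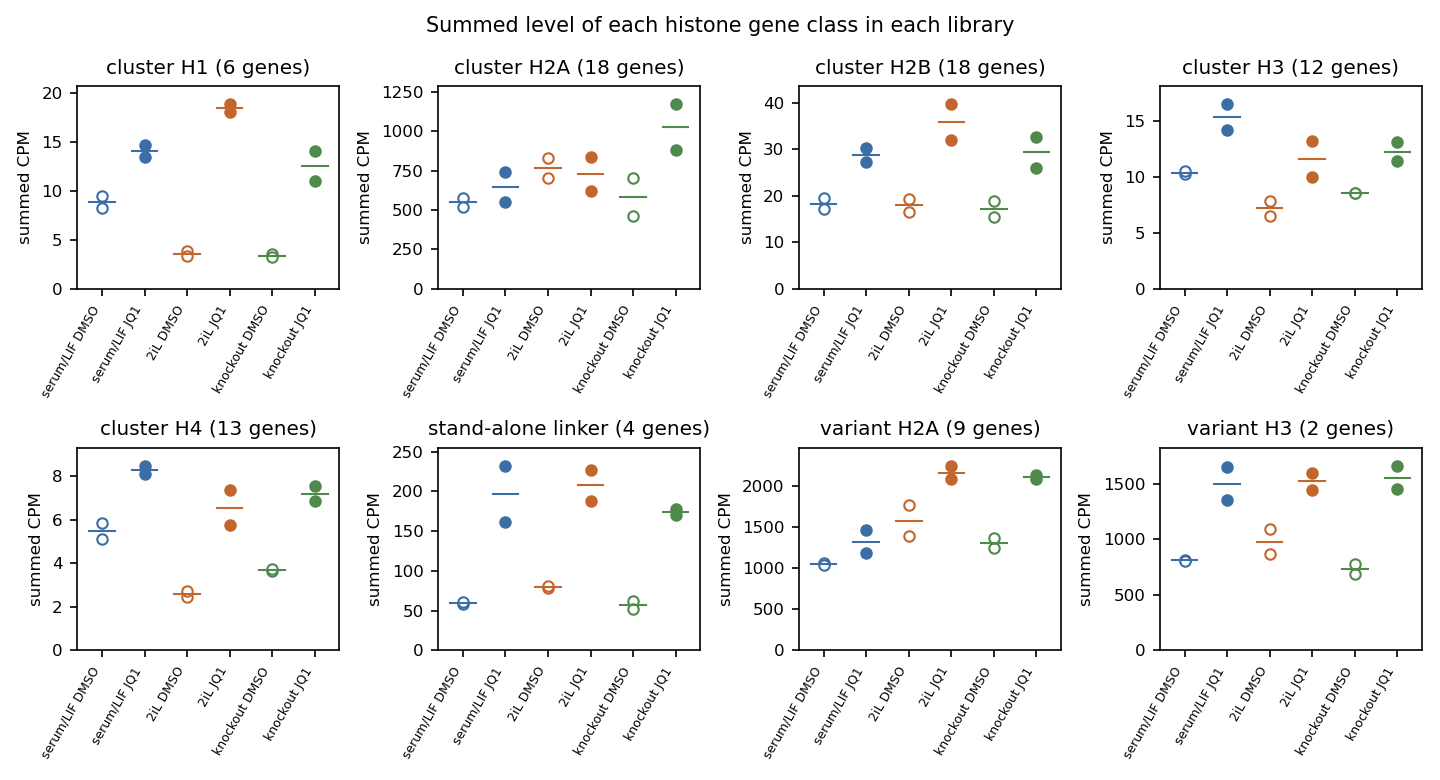
Summed CPM (vertical axis, from 0) of the genes of each histone class in every library, by group; open points are DMSO, filled points JQ1, and the bar is the mean of the 2 libraries. Cluster H1, H2B, H3 and H4, the stand-alone linkers, variant H2A and variant H3 have JQ1 points above the DMSO points of the same setting. Cluster H2A overlaps in serum/LIF and 2iL.

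The annotated end of the transcript was set beside the JQ1 change, as a description with no test. Of 23 cluster genes whose transcript runs more than 100 bases past the stem-loop, 19 were tested; their median log2 fold change was 0.66 in serum/LIF, 1.58 in 2iL and 1.30 in the knockout, and 3, 7 and 4 of them passed as higher. Of 23 whose transcript ends within 100 bases, 14 were tested, the medians were 0.57, 0.30 and 0.68, and 1 passed in serum/LIF and 2 in the knockout, all higher. The 9 tested of 21 genes with no match had medians of 0.42, 0.92 and 0.71, and 1, 2 and 3 of them passed as higher. Of all genes 8.54%, 11.2% and 14.6% were higher in these settings. In the knockout the share that passed was larger among genes with no match (3 of 9) than among those with longer ends (4 of 19). The set with no match is mixed in length. Most of its 21 genes have short annotated transcripts, from 312 bases in Hist1h4k to 488 in Hist2h3b. A short annotated transcript may stop before a stem-loop, so a missing match does not show that the gene lacks one. In this set, Hist1h2bc, Hist1h2bq, Hist1h2br and Hist2h2be have transcripts of 1156, 2015, 2197 and 2620 bases. Its knockout calls were Hist1h2bc and Hist2h2be, which are among these, and Hist1h2ah, with a transcript of 405 bases. In 2iL 18 of the 19 genes with the longer ends were above 0, against 8 of the 14 with the shorter and 7522 of all 16987 genes. The sets already differed with DMSO, in the libraries that are the reference of these folds. In 2iL against serum/LIF the DMSO medians were -1.22 for longer ends, -0.40 for shorter ends and 0.20 with no match. In knockout against unmodified cells they were -0.87, -0.05 and -0.10. The part of this lower start in the JQ1 folds was not tested. Read sharing differed between these sets, with a median of 20.4% of windows shared in the tested genes with longer ends and 60.1% in those with shorter ends, and its part was not tested.

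**Figure D4:**
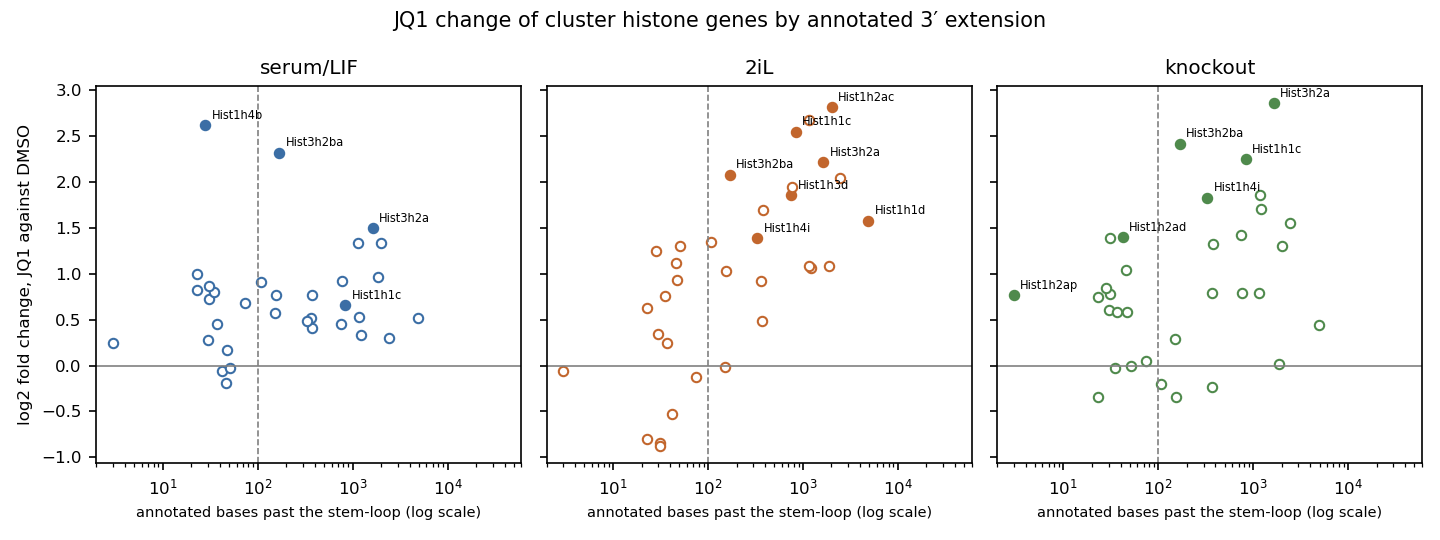
log2 fold change of JQ1 against DMSO (vertical axis) against annotated bases past the stem-loop (horizontal, log scale) for the 33 tested cluster genes with a stem-loop, 1 panel per setting; filled points passed, and the dashed line marks 100 bases. In the 2iL panel the 7 filled points lie to the right of the line, and in the knockout panel Hist1h2ap and Hist1h2ad lie to its left.

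Untreated cells were compared next, in the DMSO libraries that are also the reference of the JQ1 folds. A gene's level there and its JQ1 response, as for Hist1h1c and H2afy2, are therefore not separate results. In 2iL against serum/LIF with DMSO, 7 of 10 variant and linker genes were higher, and of 42 cluster genes 2 were higher and 6 lower, where 54.8% of all genes passed (28.3% higher, 26.5% lower). The median was 0.53 over the variant and linker genes and -0.51 over the cluster genes, beside 0.04 over all genes. The count of cluster genes was 5 without serum/LIF DMSO replicate 1, and that of variant and linker genes 4 without 2iL DMSO replicate 1. H2afy rose by 1.77 ± 0.14 (adjusted p = 2.42e-07), H2afy2 by 1.66 ± 0.18 (adjusted p = 6.5e-06), H2afx by 1.1 ± 0.16 (adjusted p = 6.2e-05) and H2afj, from 37.4 and 34.7 to 73.0 and 63.0 CPM, by 0.91 ± 0.13 (adjusted p = 4.56e-05). For each of these the 2iL libraries were above the serum/LIF libraries. H2afv (0.55), H1fx (0.51) and H3f3b (0.40) also passed, and each call was lost without 2iL DMSO replicate 1 (adjusted p = 0.133, 0.153 and 0.383) and without 1 or 2 other libraries. With RLE scaling H1fx (adjusted p = 0.0502) and H3f3b (adjusted p = 0.0547) also missed the threshold.

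The 6 cluster genes that fell in 2iL included 2 linkers. Hist1h1c had a log2 fold change of -1.40 ± 0.22 (adjusted p = 0.000149). Hist1h2ac went from 0.672 and 0.819 CPM in serum/LIF to 0.138 and 0.0461 CPM in 2iL, which are 3 counts and 1 count (-2.92 ± 0.68, adjusted p = 0.00269), Hist1h2be from 1.59 and 1.43 to 0.321 and 0.369 CPM (-2.12 ± 0.43, adjusted p = 0.000959), and Hist1h4h from 0.855 and 1.43 to 0.229 and 0.184 CPM (-2.39 ± 0.60, adjusted p = 0.00438). In each the groups were apart. The gene model of Hist1h2be overlaps that of Hist1h1e on the same strand, so their reads may be divided between them. Hist1h1e (adjusted p = 0.0344) and Hist1h2ai (adjusted p = 0.0179) passed at levels of a few counts in 2iL, and both calls were lost without serum/LIF DMSO replicate 1 (adjusted p = 0.225 and 0.074) or 2iL DMSO replicate 1 (adjusted p = 0.197 and 0.105). Hist1h2ai and both genes that rose share most of their windows with other genes. Of the 2 that rose, Hist1h2ao went from 0.794 and 0.409 to 1.79 and 1.70 CPM (1.44 ± 0.41, adjusted p = 0.00956; 1.13 and adjusted p = 0.0727 without serum/LIF DMSO replicate 2), and Hist1h2ah (0.51 ± 0.20, adjusted p = 0.0482) fell to 0.11 without 2iL DMSO replicate 1 (adjusted p = 0.688). All 11 fibroblast markers tested were lower in 2iL, and 18 of 20 S phase genes were higher; their part in the histone differences was not tested.

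In knockout against unmodified serum/LIF cells with DMSO, which shares the serum/LIF libraries with the last comparison, 2 cluster genes were lower and 2 variant genes higher, where 40% of all genes passed (18.9% higher, 21% lower). Hist1h1c was lower (log2 fold change -1.62 ± 0.23, adjusted p = 0.000121) and H2afy higher by 0.86 ± 0.13 (adjusted p = 0.000263). The H4 gene Hist1h4i went from 1.79 and 1.02 to 0.356 and 0.503 CPM (-1.76 ± 0.48, adjusted p = 0.0106), and passed no longer without unmodified DMSO replicate 1 (-1.25, adjusted p = 0.141) or knockout DMSO replicate 1 (-1.52, adjusted p = 0.0951). H2afz stood at 595 and 597 CPM in unmodified and 725 and 850 CPM in knockout cells (0.40 ± 0.15, adjusted p = 0.0495), and did not pass without any one library. With knockout DMSO replicate 2 left out 4 cluster genes passed, and with knockout DMSO replicate 1 left out 1. Of the 11 fibroblast markers tested, 9 were lower and 1 higher in the knockout, and 13 of 20 S phase genes were higher, which was not tested as a part of these values.

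The JQ1 responses were also compared directly. The test of 2iL minus serum/LIF called 1 cluster gene higher, Hist1h1c, and 1 variant gene lower, H2afy2, among the 4.16% of all genes that passed (1.35% higher, 2.8% lower). The test of knockout minus unmodified cells called Hist1h1c and H2afx higher, where 4.37% of all genes passed (1.25% higher, 3.12% lower). Hist1h1c therefore passed both tests, which share the unmodified serum/LIF libraries. Without serum/LIF JQ1 replicate 2, the knockout test called 2 cluster and 4 variant and linker genes. Without serum/LIF JQ1 replicate 1 or 2iL DMSO replicate 1, the 2iL test called 2 cluster genes.

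The machinery that makes and places histones was read from 3 lists. Of 15 genes of histone transcription and pre-mRNA processing, 3 were higher with JQ1 in serum/LIF, 4 were higher in 2iL, and in the knockout 6 were higher and 3 lower. The shares of all genes were 8.54%, 11.2% and 14.6% higher, and 19.5% lower in the knockout, so the count of lower genes there was at the background. Slbp, whose product binds the stem-loop, stood at 102 and 101 CPM with DMSO and 135 and 150 CPM with JQ1 in serum/LIF (0.49 ± 0.11, adjusted p = 0.00704), at 127 and 123 against 147 and 150 CPM in 2iL (0.25 ± 0.11, adjusted p = 0.104), and at 114 and 130 against 167 and 195 CPM in the knockout (0.57 ± 0.11, adjusted p = 0.00172). Npat, the S phase activator of histone transcription, passed in 2iL (0.61 ± 0.15, adjusted p = 0.011) and was at 0.45 in serum/LIF and -0.11 in the knockout, which did not pass. Casp8ap2, a factor of the histone locus body, passed in 2iL (0.53, adjusted p = 0.0203). In the knockout Zfp473 (-0.73) and Gon4l (-0.52) were lower with JQ1 (adjusted p = 0.00204 and 0.00651).

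Of 20 histone chaperones and exchange factors, 7 were higher with JQ1 in serum/LIF, 5 were higher in 2iL, and 6 were higher and 1 lower in the knockout, beside 8.54%, 11.2% and 14.6% of all genes higher and 19.5% lower in the knockout. The lower gene was Srcap, the motor of a complex that places H2A.Z, at 217 and 134 CPM with DMSO and 89 and 61.9 CPM with JQ1 (-1.21 ± 0.35, adjusted p = 0.0178). It missed the threshold with DMSO replicate 1 left out (-0.82, adjusted p = 0.167) and with JQ1 replicate 2 left out (-0.97, adjusted p = 0.141). Hira, the chaperone that deposits H3.3, stood at 70.4 and 65.5 CPM with DMSO and 93.6 and 90.2 CPM with JQ1 in serum/LIF (0.44 ± 0.09, adjusted p = 0.00637), passed in 2iL (0.31, adjusted p = 0.0265), and was at 0.12 in the knockout (adjusted p = 0.357). Asf1b, which hands H3 and H4 to the assembly factors, rose in serum/LIF (0.55, adjusted p = 0.0139) and in the knockout (0.61, adjusted p = 0.00491). Ep400 rose in serum/LIF (0.77) and 2iL (1.04), and Atrx in 2iL (0.78, adjusted p = 0.000993). Chaf1a, a subunit of the replication-coupled assembly factor, passed in 2iL (0.39, adjusted p = 0.0123).

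Of 20 S phase genes, 2 were higher with JQ1 in serum/LIF, 1 was higher and 2 lower in 2iL, and 8 were higher and 1 lower in the knockout, with medians of 0.08, -0.03 and 0.07. The serum/LIF count was near the 8.54% of all genes that were higher, and those in 2iL were below the 11.2% higher and 17.3% lower over all genes. In the knockout the 8 higher of 20 exceeded the 14.6% higher over all genes, and the 1 lower fell below the 19.5% lower. Pcna, the replication clamp, rose by 0.33 ± 0.10 in serum/LIF (adjusted p = 0.0344) and by 0.62 ± 0.10 in the knockout (adjusted p = 0.000682). Its fold in 2iL, 0.21 ± 0.10, did not pass (adjusted p = 0.136). The summed S phase level was 2960 to 2970 CPM with DMSO and 3030 to 3200 CPM with JQ1 in serum/LIF, 4780 to 4860 against 4690 to 4760 CPM in 2iL, and 3840 to 4110 against 4200 to 4400 CPM in the knockout. The part of S phase in the histone values was not tested.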

How the data were processed

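Messenger RNA was sequenced in 12 libraries, 6 groups of 2. Per the file headers the authors deposited expected counts and TPM for each gene, and per the submitters' processing notes the tools were bcl2fastq, STAR 2.5.2, RSEM and DESeq2 1.18.1 with the mm10 genome. Annotation release, strand setting and filters are not given in the sources used here, so antisense and overlapping genes cannot be separated. Identifiers were matched without version to GENCODE M21 (99.72%).

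Expected counts were rounded and tested with edgeR 4.0.16 in R 4.3.3: filterByExpr (minimum count 10, minimum total 15; 16987 genes kept), TMM scaling, and 1 quasi-likelihood fit of 6 groups with 6 residual degrees of freedom and a common biological coefficient of variation of 0.129. An SE is the fold divided by the square root of F. TPM was used only to compare levels between genes. The members and lists were chosen with earlier results of these data known. Named genes were all variant and linker genes tested, the 5 core cluster genes with the largest change in each direction that passed and reached 1 CPM in a group, the most abundant core gene of each type, and fixed and leading genes of the context lists. The test was tried on simulated data. Alternatives were RLE scaling, no filter, DESeq2, a replicate block, a fit of only the libraries compared, each library left out in turn (the lone library is then assumed to vary like the other groups), and, chosen after seeing the data, leaving out mitochondrially encoded genes.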

Additional observations from a re-analysis of the deposited data

Results flagged for a closer look

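In 4 cases the JQ1 response of a histone gene differed between settings by the test of the difference itself. For Hist1h1c the log2 response was larger than in unmodified serum/LIF cells by 1.89 in 2iL and by 1.60 in the knockout, and these values share the serum/LIF libraries. For H2afy2 the response in 2iL differed by -1.62, with a rise in serum/LIF and a fall in 2iL. For H2afx the knockout response was larger by 0.85, with an adjusted p of 0.048 that did not pass when any one of 7 of the 8 libraries was left out.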

How the results depend on the processing

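Alternatives were run for the counts of histone genes passed and for 113 calls on 55 named genes, histone and context genes together. Of these calls 57 passed under all alternatives and the others lost the threshold under at least 1, with no fold changing sign. Folds that did not pass, and medians and sums over histone genes, were not recomputed. Calls lost numbered 9 with RLE scaling, 8 with DESeq2, 5 with no low-count filter, 15 with only the libraries compared, 3 without mitochondrially encoded genes (an alternative chosen after seeing the data), and 146 of 472 on leaving out 1 library. Counts of cluster genes moved as follows. With no low-count filter they were 15 with JQ1 in the knockout, 5 for knockout against unmodified cells, 3 for the difference of 2iL from serum/LIF and 7 for that of the knockout. With DESeq2 they were 3 with JQ1 in serum/LIF and 3 for the knockout difference, and with only the libraries compared 14 with JQ1 in the knockout and 2 for the knockout difference. Among variant and linker genes, knockout against unmodified cells gave 1 with RLE scaling, with DESeq2 and without mitochondrially encoded genes, and the knockout difference gave 2 with no filter, DESeq2, only the libraries compared and the replicate block. The causes were not tested.

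Leaving out 1 library gave these ranges for cluster and then variant and linker genes: JQ1 in serum/LIF 1 to 3 and 4 to 6, JQ1 in 2iL 4 to 7 and 5 to 6, JQ1 in the knockout 5 to 10 and 7 to 8, 2iL against serum/LIF 5 to 11 and 4 to 6, knockout against unmodified cells 1 to 4 and 1 to 1, the 2iL difference 1 to 2 and 1 to 1, and the knockout difference 0 to 2 and 0 to 4. Replicate numbers are shared by the groups, and the labels do not say that a number marks a shared batch: deviations of same-numbered libraries correlated at -0.27 to 0.31 between groups. With the replicate number as a block, JQ1 gave 5 cluster and 5 variant and linker genes in serum/LIF, 10 and 5 with 2iL, 10 and 8 for the knockout, and no call on a named gene was lost. Depth limits the cluster genes, of which 59 of 67 had a median under 50 counts per library.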
